A study of Mus musculus with 9 samples.

Results

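Complex IV, or cytochrome c oxidase, is the last enzyme of the mitochondrial respiratory chain. The transcripts of 36 of its genes were followed in mouse macrophages, out of 29763 named genes in the expression table, and the 36 were picked by name from 6 roles: the core subunits encoded in mitochondrial DNA, the nuclear-encoded subunits, factors of supercomplexes and of the hypoxia-inducible domain family, factors that deliver haem a and copper, factors for the mitochondrial mRNAs, their translation and early assembly, and the electron carrier cytochrome c. All 36 reached at least 1 TPM (transcript abundance per length, scaled to a fixed total) in at least 3 of 9 libraries, as did 11133 genes in all. The depth behind each value is unknown, since TPM do not carry it.

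Polyadenylated RNA came from bone marrow-derived macrophages, primary cells grown from mouse marrow for 7 days in 30% L929 supernatant, which supplies the macrophage growth factor. All cells, wild type included, then received interferon-gamma at 40 ng/ml for 12 h. The groups were Ndufa4KO (a knockout of Ndufa4), Ndufa4l3-miR147KO (a knockout of the gene that also carries miR-147, also known as Nmes1 and listed under the symbol AA467197) and wild type, with 3 libraries each. The labels call the replicates technical and give no mouse, age, sex or strain, so p-values measure only the spread between libraries.

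Complex IV takes electrons from cytochrome c, passes them through copper and haem a centres to oxygen, and pumps protons as it does so. Its catalytic core is made from mitochondrial DNA, while the surrounding subunits and all assembly factors come from nuclear genes and are imported. NDUFA4 was first described with complex I and is now counted with complex IV, and the product of Ndufa4l3 is a related protein that rises in inflamed cells and can take its place.

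The knockouts were checked first. AA467197 had 2.90, 2.21 and 4.50 TPM in Ndufa4l3-miR147KO libraries, against 365, 358 and 355 TPM in wild type, a log2 fold change of -6.46 (limma, adjusted p = 1.82e-07). In Ndufa4KO libraries AA467197 had 527, 472 and 519 TPM, above all 3 wild-type libraries, at a log2 fold change of 0.49 (SE 0.16; adjusted p = 0.0945) that missed the threshold. Ndufa4 was listed under 1 TPM in all 9 libraries, wild type included, so its level checks nothing about the Ndufa4KO label.

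Among the other library facts, the replicates of Ndufa4KO stood further apart than those of the other genotypes. The coefficient of variation of a member over its 3 libraries had a median of 9.26% in Ndufa4KO, against 4.31% in Ndufa4l3-miR147KO and 3.51% in wild type, and it was largest in Ndufa4KO for 29 of 36 members. Summed macrophage markers stood between 9323 and 9833 TPM in Ndufa4KO, 8439 and 8614 TPM in Ndufa4l3-miR147KO, and 8831 and 8961 TPM in wild type. Lyz2 was the largest part of these sums, averaging 5414 TPM in Ndufa4KO, 4094 TPM in Ndufa4l3-miR147KO and 4585 TPM in wild type. Of the 7 tested in Ndufa4KO against wild type, 2 were positive and 5 negative. Lyz2 rose, and Cd14 and Mertk fell. Summed dendritic cell markers ran between 40.9 and 76.7 TPM in Ndufa4KO, 30.1 and 35.3 TPM in Ndufa4l3-miR147KO, and 27.8 and 29.8 TPM in wild type, with Flt3, Zbtb46, Siglech and Ccr7 under 1 TPM in every library; Clec9a rose in Ndufa4KO by 0.98 on the log2 scale (adjusted p = 0.0166). Lymphocyte and NK markers never summed to 1 TPM. Summed neutrophil and progenitor markers ran between 1.47 and 33.5 TPM in Ndufa4KO, 32.4 and 62.9 TPM in Ndufa4l3-miR147KO, and 3.83 and 71.6 TPM in wild type, while stromal markers reached at most 131 TPM and erythroid, mast and basophil markers at most 148 TPM in any library. The part of these differences in the results was not tested, and in bulk RNA fewer cells of a type and less RNA per cell cannot be told apart.

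The measured differences in complex IV transcripts between the genotypes were small. In Ndufa4KO against wild type, 2 of 36 members passed an adjusted p of 0.05 (limma, two-sided, adjusted over all 11133 genes), where 8.59% of all genes tested did. Cox7c, a small nuclear-encoded subunit, rose, and Cox7a2l, which tethers complex IV to complex III in supercomplexes, fell. Before adjustment 5 of 36 members had a p under 0.05, as did 2905 of the 11133 genes. The median log2 fold change of the members was 0.020, beside -0.076 for all genes tested (0.089 beside -0.012 with median-of-ratios scaling), and 22 members were positive and 14 negative. Without Ndufa4KO replicate 1 the members' median was 0.039, with 26 positive and 10 negative, and without replicate 3 the signs were split 18 to 18. The 95% interval of 35 of 36 members stayed inside a 1.5-fold change in either direction, and the exception was Pet100, the least abundant member. Each gene had 1 estimate of spread over all 9 libraries, so its intervals are equally wide in all 3 comparisons. The larger spread within Ndufa4KO can make them too narrow there, and too wide for Ndufa4l3-miR147KO against wild type.

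In Ndufa4l3-miR147KO against wild type, 0 of 36 members passed, where 0.431% of all genes did, and 0 had an unadjusted p under 0.05 (917 of all genes). The median log2 fold change was -0.019, and again 35 of 36 intervals stayed inside 1.5-fold, all but that of Pet100. In Ndufa4l3-miR147KO against Ndufa4KO, 0 of 36 passed (4 at an unadjusted p under 0.05, as were 2263 of all genes), where 3.24% of all genes did, the median was -0.033 and all 36 intervals stayed inside 1.5-fold. Both knockouts were set against the same wild-type libraries, so these comparisons are not independent.

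**Figure D1:**
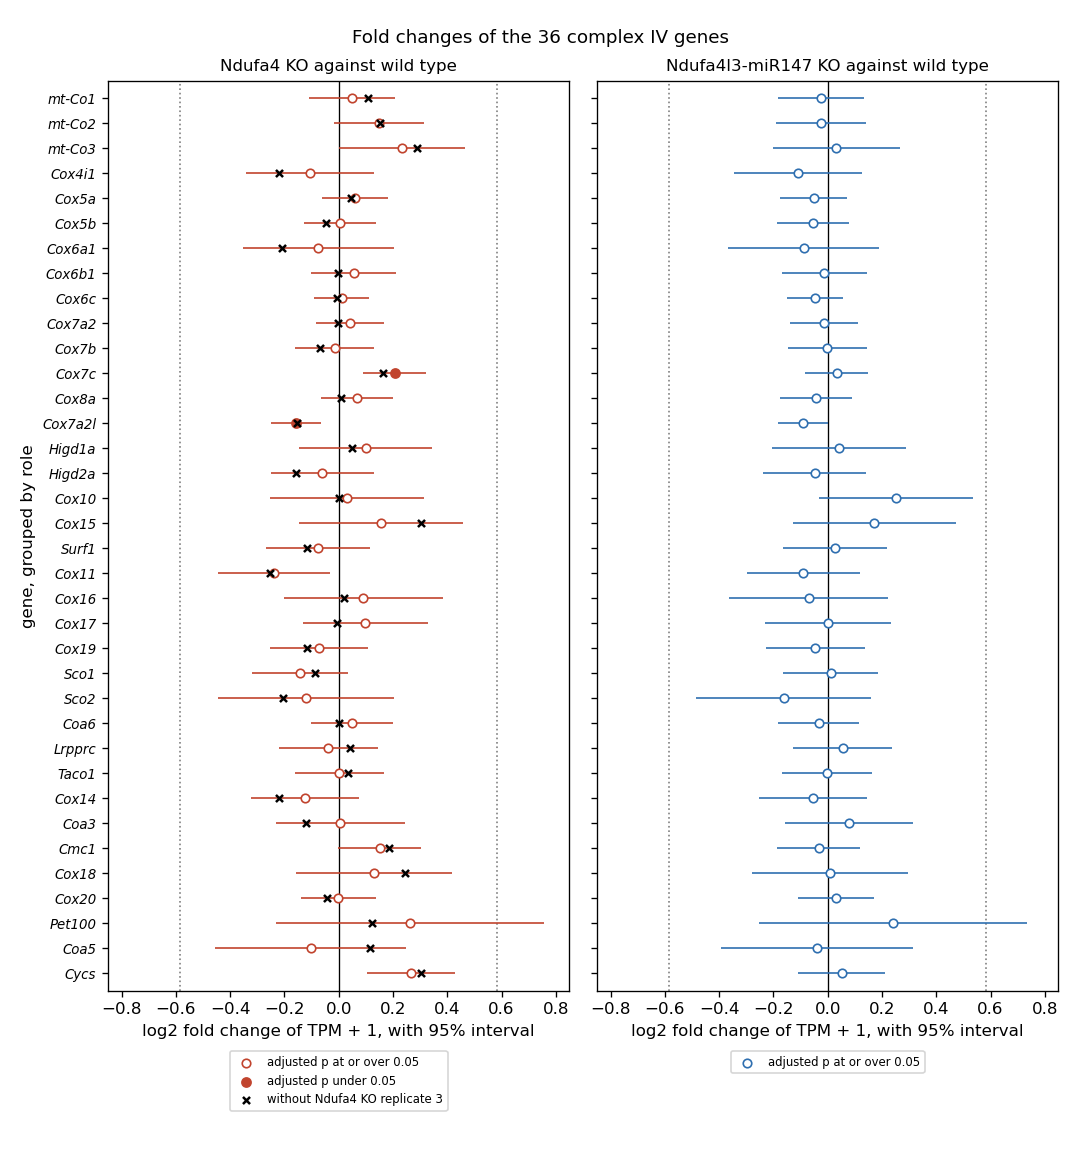
Log2 fold change of TPM + 1 with its 95% interval for each of the 36 genes, in Ndufa4 KO (left) and Ndufa4l3-miR147 KO (right) against wild type; dotted lines mark 1.5-fold, filled points passed an adjusted p of 0.05 and crosses leave out Ndufa4 KO replicate 3. Only Cox7c and Cox7a2l are filled on the left and no gene is on the right, and the widest interval in both panels is that of Pet100.

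The 2 members called in Ndufa4KO against wild type, and cytochrome c beside them, are shown with the 300 bases around their RefSeq transcription start (250 before, 50 after, GRCm38.p6). Cox6a1, the most abundant nuclear-encoded member, is added for contrast. Each window was searched on both strands for 3 motifs: GCGCATGC, bound by NRF1, CCGGAAG, bound by ETS factors, and AAGATGGCG, bound by YY1. Capitals mark a match on either strand. The windows lie on the minus strand at chr13:86046746-86047045 for Cox7c, chr17:83514284-83514583 for Cox7a2l, chr6:50566520-50566819 for Cycs and chr5:115348909-115349208 for Cox6a1.
Cox7c: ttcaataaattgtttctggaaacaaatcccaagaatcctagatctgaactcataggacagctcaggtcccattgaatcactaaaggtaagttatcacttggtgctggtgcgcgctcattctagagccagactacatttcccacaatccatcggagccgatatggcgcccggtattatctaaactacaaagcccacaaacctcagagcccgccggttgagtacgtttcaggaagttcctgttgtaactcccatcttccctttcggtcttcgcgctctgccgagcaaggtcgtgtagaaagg
Cox7a2l: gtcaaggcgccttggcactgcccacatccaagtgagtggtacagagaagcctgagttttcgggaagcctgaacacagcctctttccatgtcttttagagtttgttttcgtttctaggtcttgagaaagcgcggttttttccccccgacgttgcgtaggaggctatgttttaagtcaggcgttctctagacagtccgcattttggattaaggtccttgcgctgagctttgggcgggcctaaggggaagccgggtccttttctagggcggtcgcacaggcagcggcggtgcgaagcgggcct
Cycs: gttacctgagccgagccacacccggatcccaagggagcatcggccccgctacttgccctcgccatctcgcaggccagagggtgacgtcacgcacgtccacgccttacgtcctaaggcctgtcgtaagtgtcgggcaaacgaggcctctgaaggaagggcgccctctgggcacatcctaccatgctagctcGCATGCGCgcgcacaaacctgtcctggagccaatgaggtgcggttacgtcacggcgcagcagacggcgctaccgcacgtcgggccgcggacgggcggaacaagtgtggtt
Cox6a1: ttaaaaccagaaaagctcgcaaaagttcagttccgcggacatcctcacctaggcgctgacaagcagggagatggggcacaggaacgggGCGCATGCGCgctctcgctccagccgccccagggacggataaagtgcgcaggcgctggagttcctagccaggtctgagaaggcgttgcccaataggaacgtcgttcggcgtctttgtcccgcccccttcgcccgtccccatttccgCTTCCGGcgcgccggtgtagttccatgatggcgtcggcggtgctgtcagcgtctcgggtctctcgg
Neither Cox7c nor Cox7a2l held any of the 3 motifs in this window. The Cox7a2l window lies inside the annotated gene, which reaches 83517330 on the minus strand, so bases before that 5' end were not searched. The Cycs window held an NRF1 match that begins 60 bases before the start. The Cox6a1 window held 2 overlapping NRF1 matches, the same palindromic stretch read on both strands, and an ETS match 16 bases before the start. Windows were at hand for 28 of the 36 members. The ETS motif stood in 13 of them, or 46.4%, beside 21.7% of the 8272 tested genes with a window. The NRF1 motif stood in 3 of them (Cox6a1, Higd1a and Cycs), or 10.7%, beside 6.43% of those genes, and the YY1 motif in 1 (Cox10), or 3.57%, beside 3.95%. At least 1 of the 3 motifs stood in 14 of the 28, or 50%, beside 29.3% of those genes, so a window without any was common. A match is a description of letters and shows no binding.

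The 3 mitochondrially encoded subunits form the catalytic core and were by far the most abundant members. On the TPM scale mt-Co1, which holds the haem a centres, had 10407, 8858 and 8509 in Ndufa4KO, 9120, 8675 and 8500.3 in Ndufa4l3-miR147KO, and 8865, 8916 and 8953 in wild type. The groups overlapped, and Ndufa4KO replicate 1 stood above every other library. mt-Co2, which receives electrons from cytochrome c, had 9634, 8087 and 8749 TPM in Ndufa4KO, 8521, 7639.7 and 7326 TPM in Ndufa4l3-miR147KO, and 7791, 7918 and 8126 TPM in wild type. Here too the ranges overlapped.

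mt-Co3, the third core subunit, had 7661, 5685 and 5905 TPM in Ndufa4KO, 5960.5, 5355 and 5291 TPM in Ndufa4l3-miR147KO, and 5290.1, 5336 and 5603 TPM in wild type. All 3 Ndufa4KO libraries stood above the wild-type libraries, and replicate 1 stood far above the others. Its log2 fold change in Ndufa4KO was 0.23 (95% interval 0.00021 to 0.47; adjusted p = 0.191), and without Ndufa4KO replicate 1 it was 0.099. The change for mt-Co2 was 0.15 (-0.017 to 0.31; adjusted p = 0.238) and 0.082 without Ndufa4KO replicate 1; of 21 alternatives, quantile normalization alone called it (0.12; adjusted p = 0.0118). For mt-Co1 it was 0.050, and it was -0.038 without Ndufa4KO replicate 1, and -0.062 with quantile normalization. In Ndufa4l3-miR147KO the 3 log2 fold changes lay between -0.024 and 0.031.

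The other mRNAs of mitochondrial DNA give a scale for these values. The 10 mitochondrially encoded mRNAs outside complex IV had a median log2 fold change of 0.23 in Ndufa4KO against wild type, beside 0.15 for the 3 core members. With limma 1 of the 10 passed, where 8.59% of all genes tested did. It was mt-Nd3 of complex I, at 0.27 (adjusted p = 0.0270). Without Ndufa4KO replicate 1 the medians were 0.10 for the 10 and 0.082 for the 3. In that limma fit 9.98% of all genes passed. There mt-Nd3 stood at 0.23 (adjusted p = 0.0448), and mt-Atp8 of ATP synthase, named after its values were seen, was called lower at -0.18 (adjusted p = 0.0406). In Ndufa4l3-miR147KO the median of the 10 was 0.015 and 0 of 10 passed, where 0.431% of all genes did. The sequences of the core members also occur in nuclear copies of mitochondrial DNA: counted as 31-base words, 100% of mt-Co2, 99.9% of mt-Co3 and 63.9% of mt-Co1 occurred in another annotated gene. Gm28661, a copy of mt-Co2 sharing 99.5% of its words, was listed at 1331, 221 and 22.2 TPM in Ndufa4KO, 128, 263 and 488 TPM in Ndufa4l3-miR147KO, and 173, 208 and 54.8 TPM in wild type. These values differed widely between replicates of 1 genotype. With copies added, mt-Co2 had 10966, 8308 and 8772 TPM in Ndufa4KO against 7964, 8127 and 8181 TPM in wild type, a log2 fold change of 0.20 (adjusted p = 0.215).

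The 10 nuclear-encoded subunits surround and stabilise the core. Their wild-type means lay between 178 TPM (Cox7b) and 1315 TPM (Cox6a1). In Ndufa4KO against wild type Cox7c alone passed, where 8.59% of all genes tested did. Of the 10, 7 were positive and 3 negative, with a median log2 fold change of 0.026. That split rested on single libraries: without Ndufa4KO replicate 3 it was 3 positive and 7 negative (median -0.0050), and without replicate 1 all 10 were positive (median 0.057). In Ndufa4l3-miR147KO 9 of 10 were negative, with a median of -0.045, and 0 passed, where 0.431% of all genes did.

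Cox7c lies on chromosome 13 (86044816 to 86046904, minus strand, GRCm38). It had 505, 493 and 549 TPM in Ndufa4KO, 435, 467 and 468 TPM in Ndufa4l3-miR147KO, and 450.1, 447 and 441 TPM in wild type. Every Ndufa4KO library stood above every other library, while the Ndufa4l3-miR147KO and wild-type ranges overlapped. Cox7c averaged 516 ± 29.2 TPM in Ndufa4KO and 446 ± 4.53 TPM in wild type (SD, 3 libraries each). The log2 fold change was 0.21 (SE 0.051, 95% interval 0.091 to 0.32; adjusted p = 0.0405). Without Ndufa4KO replicate 3 it was 0.16 (adjusted p = 0.0316). The call was kept in 10 of 21 alternative analyses (adjusted p 0.00648 to 0.139) and was lost with median-of-ratios scaling (adjusted p = 0.0513) and when any 1 wild-type or any 1 Ndufa4l3-miR147KO library was left out; the value stayed positive, between 0.15 and 0.28, in all 21. In Ndufa4l3-miR147KO against wild type it was 0.033 (-0.083 to 0.15), and in Ndufa4l3-miR147KO against Ndufa4KO -0.17 (adjusted p = 0.112).

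Cox4i1 and Cox6a1 were the most abundant nuclear-encoded members. Cox4i1, the largest nuclear-encoded subunit and a site of ATP regulation, had 852, 1043 and 1195 TPM in Ndufa4KO, 969, 1049.7 and 1033 TPM in Ndufa4l3-miR147KO, and 1126, 1112 and 1054 TPM in wild type. Cox6a1 had 1000.3, 1295 and 1498 TPM in Ndufa4KO, 1176, 1260.0 and 1276 TPM in Ndufa4l3-miR147KO, and 1374, 1320.4 and 1251 TPM in wild type. For both genes Ndufa4KO replicate 1 was the lowest and replicate 3 the highest of all 9 libraries. The log2 fold changes in Ndufa4KO were -0.10 (-0.34 to 0.13) for Cox4i1 and -0.075 (-0.35 to 0.20) for Cox6a1; without replicate 3 they were -0.22 and -0.21 (adjusted p = 0.107 and 0.193), and without replicate 1 they were positive, at 0.025 and 0.084 (adjusted p = 0.813 and 0.440), so their sign rested on that library.

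Other nuclear-encoded subunits shared parts of that order. Ndufa4KO replicate 3 was the highest of the 9 libraries for 9 of the 10 nuclear-encoded subunits, and Ndufa4KO replicate 1 was the lowest for 4. Summed over the 10, Ndufa4KO had 5161, 5532 and 6254 TPM, Ndufa4l3-miR147KO had 5214, 5456 and 5539 TPM, and wild type had 5759, 5613 and 5482 TPM. The 3 core mRNAs summed to 27702, 22630.4 and 23163 TPM in Ndufa4KO, 23601, 21669.8 and 21117 TPM in Ndufa4l3-miR147KO, and 21946, 22171 and 22682 TPM in wild type. The ratio of the core sum to the nuclear sum was 5.37, 4.09 and 3.70 in Ndufa4KO, 4.53, 3.97 and 3.81 in Ndufa4l3-miR147KO, and 3.81, 3.95 and 4.14 in wild type. The Ndufa4KO libraries thus held both the highest and the lowest ratio of the 9.

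**Figure D2:**
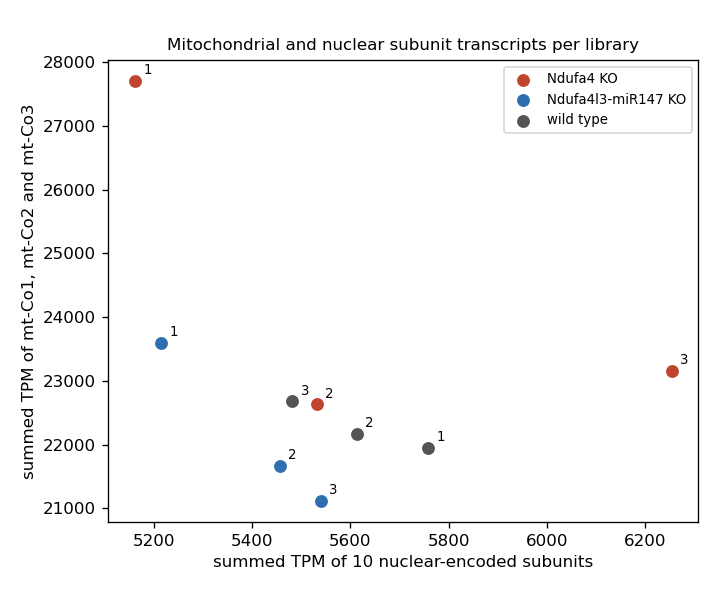
Summed TPM of the 3 core mRNAs (vertical axis) against that of the 10 nuclear-encoded subunits (horizontal axis), 1 point per library, with the replicate number beside it; neither axis starts at 0. Ndufa4 KO replicate 1 stands alone at the top left (27702 TPM core, 5161 TPM nuclear) and replicate 3 alone at the right (6254 TPM nuclear).

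Several subunits have a second gene used in muscle, lung or testis, and these were low. On the per-length TPM scale, Cox4i2 stood at 1.06 to 3.94 and Cox6a2 at 8.77 to 15.1 over the 9 libraries. Cox7a1 stood at 28.2 to 39.4 TPM, the highest of these isoforms, Cox6b2 at 0 to 1.63 TPM, and Cox7b2 was listed at 0 throughout. None of the tested members of the isoform list (6 genes, with AA467197) passed in Ndufa4KO with limma, where 8.59% of all genes did. At an unadjusted p under 0.05 stood 1 of the 6, as did 2905 of all 11133 genes. AA467197 alone passed in its own knockout, where 0.431% of all genes did.

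Cox7a2l, Higd1a and Higd2a help to build supercomplexes or belong to the hypoxia-inducible domain family. Cox7a2l lies on chromosome 17 (83501918 to 83517330, minus strand, GRCm38). It had 226, 214 and 218 TPM in Ndufa4KO, 229, 227 and 233 TPM in Ndufa4l3-miR147KO, and 240.0, 249.8 and 244 TPM in wild type. All 3 Ndufa4KO libraries stood below the other 6, and the Ndufa4l3-miR147KO libraries stood between the other genotypes without overlap. Cox7a2l averaged 219 ± 5.96 TPM in Ndufa4KO and 245 ± 4.94 TPM in wild type (SD, 3 libraries each). The log2 fold change was -0.16 (SE 0.041, 95% interval -0.25 to -0.064; adjusted p = 0.0480), and without Ndufa4KO replicate 3 it was -0.15 (adjusted p = 0.0316).

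The call on Cox7a2l was kept in 9 of 21 alternative analyses (adjusted p 0.00140 to 0.319), and the value stayed negative in all 21, between -0.19 and -0.087. It was lost when any 1 wild-type library, any 1 Ndufa4l3-miR147KO library or Ndufa4KO replicate 2 was left out. Median-of-ratios scaling, which moved the median of all genes in this comparison to -0.012 from -0.076, ended it too. In Ndufa4l3-miR147KO against wild type the change was -0.091 (-0.18 to 0.0020; adjusted p = 0.617). Higd1a, which is induced by low oxygen, had a log2 fold change of 0.099 (-0.15 to 0.35) and Higd2a one of -0.060 (-0.25 to 0.13) in Ndufa4KO. Higd1a stood at 0.22 without Ndufa4KO replicate 1 and 0.049 without replicate 3, and Higd2a at 0.022 and -0.16 (adjusted p = 0.0905 for the last), so the sign of Higd2a rested on 1 library; with median-of-ratios scaling it was 0.0094.

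**Figure D3:**
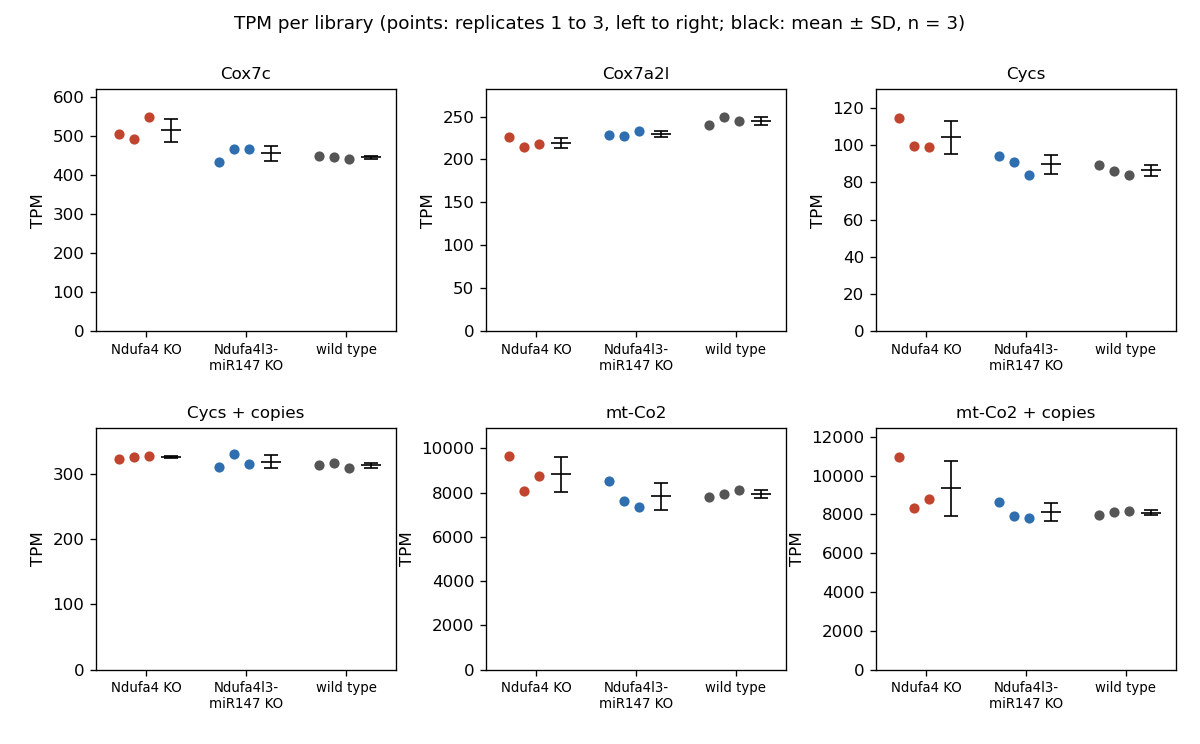
TPM in each library for Cox7c, Cox7a2l, Cycs and mt-Co2, and for Cycs and mt-Co2 with their listed copies added; points are replicates 1 to 3 from left to right, black bars the mean ± SD of 3 libraries, and the axes start at 0. Ndufa4 KO stands above wild type for Cox7c and Cycs and below it for Cox7a2l, and for Cycs with copies added the means are 326 TPM in Ndufa4 KO and 313 TPM in wild type.

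Cycs, cytochrome c, carries electrons to complex IV and triggers cell death when it leaves mitochondria. It lies on chromosome 6 (50562563 to 50566538, minus strand, GRCm38). Cycs had 115, 99.4 and 98.9 TPM in Ndufa4KO, 94.3, 90.8 and 83.8 TPM in Ndufa4l3-miR147KO, and 89.3, 86.1 and 83.8 TPM in wild type. Every Ndufa4KO library stood above every other library. The log2 fold change was 0.27 (SE 0.072, 95% interval 0.10 to 0.43; adjusted p = 0.0525), just outside the threshold. It passed in 7 of 21 alternative analyses, among them leaving out Ndufa4KO replicate 3 (0.30; adjusted p = 0.0281).

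Cycs has a close copy, Gm10053, annotated as protein-coding, which shares 28.6% of the 31-base words of Cycs. Gm10053 was listed above Cycs itself, at 209, 227 and 228 TPM in Ndufa4KO, 217, 239 and 232 TPM in Ndufa4l3-miR147KO, and 224, 231 and 225 TPM in wild type. With its listed copies added, Cycs had 324, 326 and 327 TPM in Ndufa4KO, 311, 330.1 and 315 TPM in Ndufa4l3-miR147KO, and 314, 317 and 309 TPM in wild type. The log2 fold change of that sum was 0.057 (limma, SE 0.039, adjusted p = 0.391). Gm10053 made up most of the sum in every library, so a change in Cycs alone would move it little. How reads were divided between these genes was not tested. Over all 36 members, 19 shared more than 10% of their words with another gene and 5 shared none. Adding copies left Cox7c at 0.21 (adjusted p = 0.0352) and Cox7a2l at -0.16 (adjusted p = 0.0476).

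The 10 haem a and copper factors make haem a from haem (Cox10, Cox15), insert cofactors or carry copper (Surf1, Cox11, Cox17, Cox19, Sco1, Sco2, Coa6) or help to fit copper into COX2 (Cox16). Their wild-type means lay between 8.84 TPM (Sco2) and 190 TPM (Cox17). None passed with limma in any of the 3 comparisons. Of all genes 8.59% passed in Ndufa4KO against wild type, 0.431% in Ndufa4l3-miR147KO against wild type and 3.24% between the knockouts. At an unadjusted p under 0.05 stood 1 of the 10 in Ndufa4KO against wild type, as did 2905 of all 11133 genes. The others had 0, beside 917 genes in Ndufa4l3-miR147KO against wild type and 2263 between the knockouts. In Ndufa4KO against wild type the log2 fold changes of the 10 factors lay between -0.24 and 0.16, with 5 positive and 5 negative. Cox11, which delivers copper to the core subunit COX1, had 19.8, 16.5 and 18.7 TPM in Ndufa4KO, 21.7, 19.3 and 20.3 TPM in Ndufa4l3-miR147KO, and 19.8, 23.0 and 22.7 TPM in wild type, so that Ndufa4KO and wild type overlapped. Its change was -0.24 (-0.45 to -0.032, limma, adjusted p = 0.142). Of 21 alternatives, array weights alone called it (limma, adjusted p = 0.00552).

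Cox15, the haem a synthase, was positive in both knockouts without passing. It had 14.2, 17.1 and 11.2 TPM in Ndufa4KO, 14.4, 15.2 and 12.9 TPM in Ndufa4l3-miR147KO, and 12.9, 12.5 and 11.9 TPM in wild type. The log2 fold change was 0.16 (-0.14 to 0.46) in Ndufa4KO and 0.17 (-0.13 to 0.47) in Ndufa4l3-miR147KO. Without Ndufa4KO replicate 3 the first was 0.30 (limma, adjusted p = 0.0727). Of 21 alternatives, array weights alone called Cox15 in Ndufa4KO against wild type (limma, adjusted p = 0.00623). Cox17, a copper chaperone, had 172, 208 and 235 TPM in Ndufa4KO, 181, 196 and 193 TPM in Ndufa4l3-miR147KO, and 202, 187 and 181 TPM in wild type, with overlap throughout. Cox10, which makes haem o, the precursor of haem a, was named after its values were seen: it had between 16.2 and 23.4 TPM in Ndufa4l3-miR147KO and between 16.2 and 17.3 TPM in wild type, a log2 fold change of 0.25 (-0.032 to 0.54; adjusted p = 0.670). Cox16 shares 75.7% of its words with Gm20498, an overlapping gene model, and Sco2 shares 66.2% with Tymp and 64.2% with Ncaph2, so their values are uncertain.

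The 9 factors for mitochondrial mRNA, translation and early assembly had wild-type means between 3.56 TPM (Pet100) and 184 TPM (Coa5). None passed with limma in any of the 3 comparisons. Of all genes 8.59% passed in Ndufa4KO against wild type, 0.431% in Ndufa4l3-miR147KO against wild type and 3.24% between the knockouts. At an unadjusted p under 0.05 stood 1 of the 9 between the knockouts, as did 2263 of all 11133 genes. The others had 0, beside 2905 genes in Ndufa4KO and 917 in Ndufa4l3-miR147KO against wild type. Coa5, an early assembly factor, had 211, 188 and 126 TPM in Ndufa4KO, 185, 174 and 177 TPM in Ndufa4l3-miR147KO, and 181.2, 181.2 and 188 TPM in wild type. Ndufa4KO replicate 3 stood far below all others. The log2 fold change was -0.10 (-0.46 to 0.25), 0.12 without that library and -0.25 without replicate 1, so its sign rested on replicate 3.

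Coa3, which binds newly made core subunit COX1, had a log2 fold change of 0.0061 (-0.23 to 0.24) in Ndufa4KO, -0.12 without replicate 3 and 0.12 without replicate 1. Cmc1, a partner of COX1 in early assembly, had 23.5, 22.8 and 21.5 TPM in Ndufa4KO, between 18.7 and 20.6 TPM in Ndufa4l3-miR147KO, and 20.3, 19.4 and 20.9 TPM in wild type. The Ndufa4KO libraries stood above all the others, at a log2 fold change of 0.15 (-0.00078 to 0.30, limma, adjusted p = 0.194). Of 21 alternatives, quantile normalization and array weights called Cmc1 in Ndufa4KO against wild type. Both also called it lower in Ndufa4l3-miR147KO against Ndufa4KO. Pet100, needed for assembly and the least abundant member, had 5.17, 2.999 and 5.65 TPM in Ndufa4KO, 5.87, 3.27 and 4.33 TPM in Ndufa4l3-miR147KO, and 3.60, 3.54 and 3.55 TPM in wild type. Its log2 fold change in Ndufa4KO was 0.26 (-0.23 to 0.76, limma, adjusted p = 0.473). Pet100 shares 66.5% of its words with the overlapping gene Pcp2.

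Members whose 3 Ndufa4KO libraries did not overlap the 3 wild-type libraries numbered 6 of 36, where 31.1% of all genes did so: mt-Co3, Cox7c, Cmc1 and Cycs above, Cox7a2l and Sco1 below. In Ndufa4l3-miR147KO against wild type they numbered 4 (Cox15 above, Cox4i1, Cox5a and Cox7a2l below), where 23.9% of all genes did so. Of these, Sco1 and Cox5a were named after their values were seen.

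**Figure D4:**
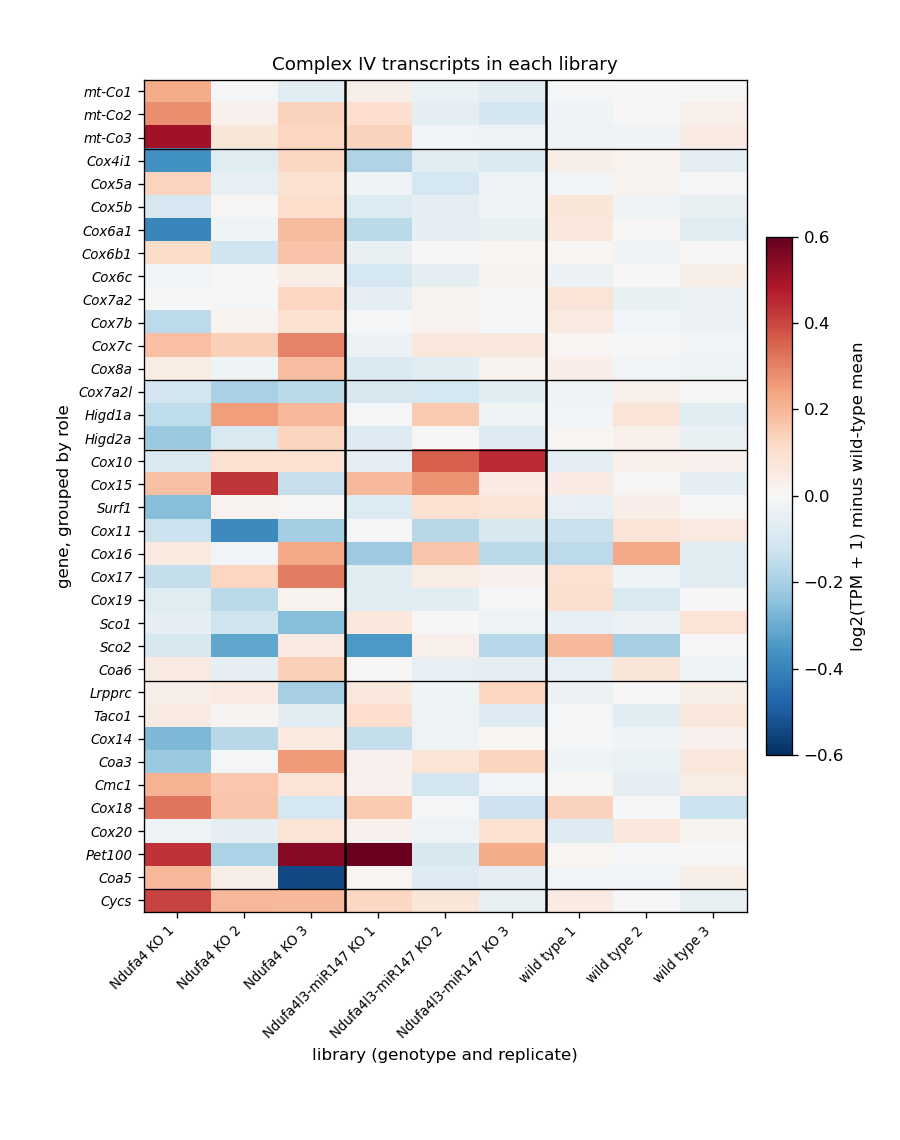
Log2(TPM + 1) of each of the 36 genes minus its wild-type mean (colour, red higher and blue lower), with libraries in columns by genotype and genes in rows by role, separated by lines. Ndufa4 KO replicate 1 is red for the core mRNAs and blue for Cox4i1 and Cox6a1, replicate 3 is red for all 10 nuclear-encoded subunits, and the wild-type columns are pale.

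Deviations among the Ndufa4KO libraries went with transcript length. Over the 36 members, the rank correlation of a gene's deviation from its Ndufa4KO mean with its median annotated transcript length was 0.40 in replicate 1, 0.34 in replicate 2 and -0.56 in replicate 3. Deviations of 3 libraries from their own mean sum to 0, so these values depend on each other. Over all genes with a length they were 0.28, 0.30 and -0.41. In Ndufa4l3-miR147KO and wild type the values over members lay between -0.30 and 0.30. The median deviation of the members from wild type was 0.092 in Ndufa4KO replicate 3, where that of all genes was -0.14.

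Without Ndufa4KO replicate 3, 4 of 36 members passed in Ndufa4KO against wild type, where 14.2% of all genes did. Cox7c and Cycs were higher, and Cox7a2l and Cox14 were lower. Cox14, an early partner of COX1 named here after its values were seen, had 26.2, 28.3 and 33.3 TPM in Ndufa4KO and 31.7, 31.3 and 32.5 TPM in wild type; its log2 fold change was -0.22 without replicate 3 (adjusted p = 0.0499) and -0.13 with it (adjusted p = 0.398). The median of the members without that library was -0.00062.

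**Figure D5:**
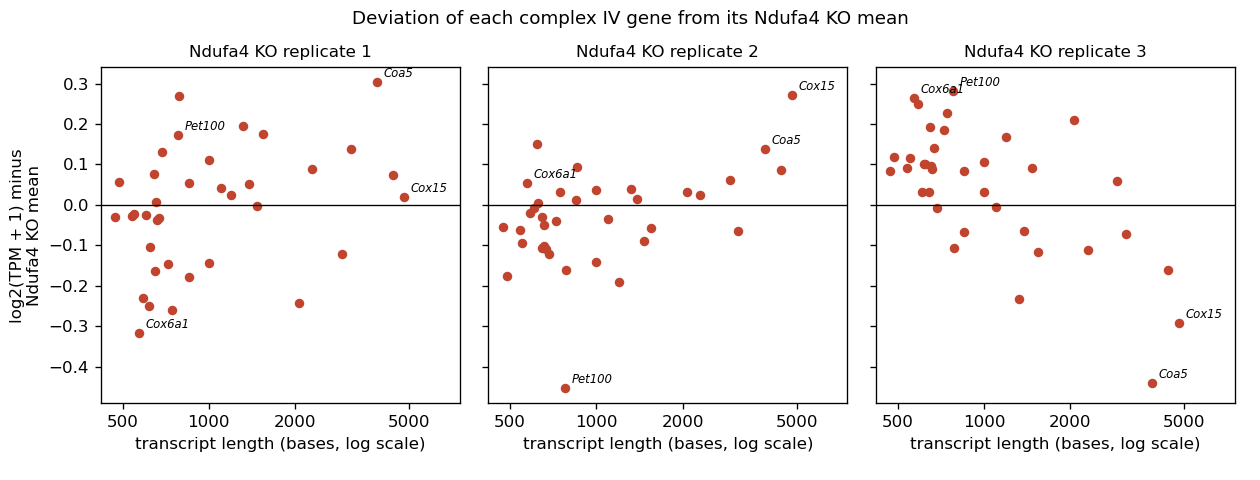
Log2(TPM + 1) of each of the 36 genes minus its Ndufa4 KO mean, against median annotated transcript length in bases (log axis), for the 3 Ndufa4 KO libraries. Short transcripts such as Cox6a1 lie above 0 and long ones such as Coa5 and Cox15 below it in replicate 3, and Cox6a1 lies below and Coa5 above 0 in replicate 1.

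Beyond the 36 members, a list of 25 other assembly, copper and haem factors had 17 genes tested. With limma 0 passed in Ndufa4KO against wild type, where 8.59% of all genes did. In that comparison 0 had an unadjusted p under 0.05, beside 2905 of all 11133 genes. In Ndufa4l3-miR147KO against wild type 0 passed, where 0.431% of all genes did. There 2 had an unadjusted p under 0.05, beside 917 of all genes. Slc25a3, the carrier that brings phosphate and copper into mitochondria, had 446, 439 and 476 TPM in Ndufa4KO and averaged 443 ± 9.84 TPM in wild type, a log2 fold change of 0.033. Slc31a1, the copper importer of the cell surface, had 107, 103 and 88.3 TPM in Ndufa4KO and averaged 104 ± 0.356 TPM in wild type, a log2 fold change of -0.071.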

How the data were processed

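Polyadenylated RNA was sequenced from 9 libraries, 3 of each genotype. The values are TPM deposited by the authors in 1 table. Among the tools named per the submitters' processing notes are kallisto, which estimates transcript abundance, DESeq2 and edgeR, without versions or roles, and both mm10 and GRCm39 are named as builds. How transcripts were annotated and summed is not given in the sources used here. Table totals left 7.83% to 8.65% of each library outside the listed genes, and an entry without a name (at most 0.00303%) was dropped. TPM keep no depth, and as shares of a fixed total they fall when other genes rise. They also depend on a modelled transcript length, so coverage of long transcripts affects them.

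The filter kept genes reaching 1 TPM in 3 or more libraries, whose log2(TPM + 1) was fitted with limma 3.58.1 in R 4.3.3, with 1 mean per genotype over all 9 libraries and an intensity trend. The pseudocount understates changes of low genes. Tests were two-sided, with Benjamini-Hochberg adjustment over 11133 genes and a threshold of 0.05. The fit was also run on simulated data, with normal noise whose spread per gene was equal in all 9 libraries. That setting leaves out the larger spread and the length-related deviations of Ndufa4KO, so it cannot show how the fit handles them. The members and lists were chosen with earlier results of these data known, so lists are described by counts and medians only. Genes given with values were those called in a comparison, the 3 core members, and in each role the 2 most abundant and the 2 with the largest change in Ndufa4KO, with the targeted genes and the 2 most abundant of each further list; others are said to have been named later. Gene coordinates, lengths (10673 of 11133 genes matched) and shared 31-base words came from GENCODE M21 (GRCm38), and promoter windows from RefSeq (GRCm38.p6). Alternatives covered pseudocount, filter, scaling, length trend, libraries fitted, intensity trend, a replicate block and leaving out each library. Array weights and summing copies were added after the data were seen. The copies were listed pseudogenes or Gm-named genes, and some shared few words, such as Gm11512 with 2.51% of those of mt-Co1.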

Additional observations from a re-analysis of the deposited data

How the results depend on the processing

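Of 21 alternatives, none called a member in Ndufa4l3-miR147KO against wild type. No called member changed sign, but the balance of higher and lower calls over all genes moved with the scaling. In Ndufa4KO against wild type, Cox7c, the 1 member called higher, was lost with median-of-ratios scaling (0.28; adjusted p = 0.0513) and the replicate block (adjusted p = 0.0685), where Cycs was the 1 called. The count of 1 became 0 with no filter, with only the 6 libraries compared and with no intensity trend, 2 with at least 5 TPM in 3 libraries or the transcript length trend removed, and 4 with quantile normalization or array weights; leaving out 1 library gave 0 to 2. The 1 called lower became 0 with median-of-ratios scaling, removal of the length trend, only the 6 libraries, no intensity trend or the replicate block, and 3 with array weights; leaving out 1 library gave 0 to 2. In Ndufa4l3-miR147KO against Ndufa4KO, array weights called 1 higher and 3 lower, quantile normalization 2 lower and the length trend removed 1 lower, against 0. The members' median log2 fold change became 0.089 with median-of-ratios scaling and 0.064 with the length trend removed for Ndufa4KO against wild type, and -0.094 and -0.069 for Ndufa4l3-miR147KO against Ndufa4KO. The cause was not tested.

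Over all genes, calls in Ndufa4KO against wild type numbered 956, with 238 from only the 6 libraries, 3045 with array weights, and 266 to 1586 when 1 library was left out. Of the 956, 315 were higher and 641 lower, against 492 and 453 with median-of-ratios scaling, 499 and 458 with quantile normalization, and 575 and 490 with the length trend removed: 32.9% were higher, against 52.1% after quantile normalization or median-of-ratios scaling and 54.0% once the length trend was removed. In Ndufa4l3-miR147KO against Ndufa4KO the share was 67.9%, against 48.3% to 50.8% under the same 3 settings, and calls numbered 361, with 64 (only the 6 libraries) to 1726 (array weights). In Ndufa4l3-miR147KO against wild type calls numbered 48, with 13 (without wild-type replicate 1) to 538 (array weights). With the replicate block, 661 genes were called, and among the members Cycs alone. Replicate numbers were not taken as pairs, because the labels state no pairing. Deviations of same-numbered libraries correlated at -0.14 to 0.18 over 9 pairs. With 3 libraries per genotype that the labels call technical, and an unknown depth, differences between mice were not measured.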
